A study of Mus musculus with 9 samples.

Results

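The genes described here encode the protein subunits of the mitochondrial ribosome in mouse, taken as every row of the deposited expression table whose symbol is Mrpl or Mrps followed by a number and at most 1 letter. Rows for -ps pseudogenes (6 in the table) were left out. The rule gave 78 of the 56805 genes in the table. RNA had been sequenced from the left TA (tibialis anterior), a muscle of the shin made up mostly of fast fibres, in male mice aged 13 months. The 3 genotypes were Svil-KO, Svil-Mut and WT, with 3 libraries of each, 1 per animal. Svil encodes supervillin, a large actin- and myosin-binding protein of the cell cortex. The labels name no other allele and no treatment, and they do not say which exons of Svil are altered in the Svil-KO or the Svil-Mut strain. Replicate numbers were 1, 3 and 4 in Svil-KO, 1, 2 and 4 in Svil-Mut, and 1, 3 and 4 in WT, and all libraries carried the batch label 1.

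The mitochondrial ribosome, or mitoribosome, translates the few messenger RNAs made from mitochondrial DNA, all of which encode subunits of the respiratory chain or of ATP synthase. Its ribosomal RNAs come from mitochondrial DNA, while all of its proteins are encoded in the nucleus, made in the cytosol and imported. Some proteins of each subunit have a bacterial counterpart, others occur only in mitochondrial ribosomes, and the large subunit (Mrpl genes) carries the peptidyl transferase centre while the small subunit (Mrps genes) reads the messenger. A few names do not match the subunit: Mrps18a and Mrps30 belong to the large subunit, and Mrps36 is a component of the 2-oxoglutarate dehydrogenase complex, so it was counted in neither subunit.

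Promoters of genes for mitochondrial proteins often hold sites for NRF1, for ETS-family factors such as GABP and for YY1, and the promoter windows below show what these letters look like in the genes to which the comparisons return. Each window runs from 250 bases before to 50 bases after the annotated start, as given by RefSeq on GRCm38.p6, and is written 5′ to 3′ on the gene's own strand with matched motif letters in capitals. Mrpl44, Mrpl28, Mrpl14 and Mrps5 are shown because they had the smallest p-values between Svil-Mut and WT muscle. Mrpl42, the gene with the highest transcript level per length, and Mrps11, which shares part of its window with Mrpl46, were added after the values were seen. The windows lie at chr1:79775768-79776067 (plus strand) for Mrpl44, chr17:26123253-26123552 (plus) for Mrpl28, chr17:45686099-45686398 (plus) for Mrpl14, chr2:127587176-127587475 (plus) for Mrps5, chr10:95501900-95502199 (minus) for Mrpl42 and chr7:78782881-78783180 (plus) for Mrps11.
Mrpl44: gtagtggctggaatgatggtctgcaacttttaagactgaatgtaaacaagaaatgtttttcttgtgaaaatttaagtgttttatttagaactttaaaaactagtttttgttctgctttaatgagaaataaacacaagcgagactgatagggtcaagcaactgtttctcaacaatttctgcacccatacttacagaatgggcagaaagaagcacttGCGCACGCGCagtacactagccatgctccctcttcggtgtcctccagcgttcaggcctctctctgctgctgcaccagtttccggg
Mrpl28: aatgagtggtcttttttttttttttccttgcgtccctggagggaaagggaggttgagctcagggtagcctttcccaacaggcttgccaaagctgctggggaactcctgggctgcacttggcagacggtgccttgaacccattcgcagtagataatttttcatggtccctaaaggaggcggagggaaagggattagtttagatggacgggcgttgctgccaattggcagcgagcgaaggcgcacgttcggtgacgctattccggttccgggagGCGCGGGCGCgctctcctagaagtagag
Mrpl14: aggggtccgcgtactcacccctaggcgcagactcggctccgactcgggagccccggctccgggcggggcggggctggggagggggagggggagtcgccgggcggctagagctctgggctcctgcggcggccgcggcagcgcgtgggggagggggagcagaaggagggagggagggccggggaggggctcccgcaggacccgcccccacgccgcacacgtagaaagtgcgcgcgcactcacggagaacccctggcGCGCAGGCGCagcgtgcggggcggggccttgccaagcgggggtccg
Mrps5: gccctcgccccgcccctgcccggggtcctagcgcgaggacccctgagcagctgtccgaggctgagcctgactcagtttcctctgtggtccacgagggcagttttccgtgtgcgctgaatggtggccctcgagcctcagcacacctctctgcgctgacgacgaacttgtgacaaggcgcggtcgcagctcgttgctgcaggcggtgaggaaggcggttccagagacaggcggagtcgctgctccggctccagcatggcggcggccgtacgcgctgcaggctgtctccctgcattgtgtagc
Mrpl42: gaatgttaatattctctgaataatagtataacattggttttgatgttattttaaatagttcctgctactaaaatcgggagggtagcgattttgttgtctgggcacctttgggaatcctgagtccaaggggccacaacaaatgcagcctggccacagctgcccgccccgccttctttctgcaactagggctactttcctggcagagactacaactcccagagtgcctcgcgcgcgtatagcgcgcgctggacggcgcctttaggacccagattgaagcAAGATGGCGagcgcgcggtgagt
Mrps11: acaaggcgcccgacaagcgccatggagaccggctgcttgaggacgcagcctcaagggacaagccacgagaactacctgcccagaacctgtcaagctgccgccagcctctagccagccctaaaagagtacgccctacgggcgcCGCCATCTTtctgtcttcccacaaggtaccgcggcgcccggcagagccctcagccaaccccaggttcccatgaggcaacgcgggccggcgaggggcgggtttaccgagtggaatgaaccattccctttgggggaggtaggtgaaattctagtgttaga

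In these windows the NRF1 letters GCGCNNGCGC started at base 216 in Mrpl44, at base 273 in Mrpl28 and at base 255 in Mrpl14, counted from the window's first base. The YY1 letters AANATGGCG started at base 278 in Mrpl42, and their reverse complement started at base 143 in Mrps11. Mrps5 held none of the 3 motifs searched, the third being the ETS letters CCGGAAG. Of the 78 genes, 69 had a promoter in the table and 9 did not. Both strands were searched. NRF1 letters were in 14 of the 69 windows (20.3%), against 6.43% of all 27025 promoters and 9.68% of the 15391 promoters of protein-coding genes. ETS letters were in 25 of 69 (36.2%), against 9.12% of all promoters and 13.01% of protein-coding ones. YY1 letters were in 11 of 69 (15.9%), against 2.51% and 3.68%. Altogether 42 windows held at least 1 motif, 27 held none, 4 held both NRF1 and ETS letters, 4 held both ETS and YY1 letters, and 0 held NRF1 with YY1 letters. The windows had a median GC content of 58.3%, against 57.7% in protein-coding promoters, and a median of 21 CpG dinucleotides, against 15. TATAAA occurred within the 50 bases before the start in 0 of 69 windows, against 3.45% of protein-coding promoters. Mrpl46 and Mrps11 lie head to head on chromosome 7, and their windows share 141 bases, a stretch that does not include the YY1 letters of Mrps11. These counts describe letters in the sequence, not factor binding.

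Values are normalized counts, that is, reads assigned to a gene divided by a size factor for its library. The recovered depth was 36234428 to 48762188 reads per library, of which the 78 genes together took 171490 to 239387. The altered gene itself had normalized counts of 7402, 6746 and 6656 in Svil-KO, 4615, 3939 and 4582 in Svil-Mut, and 8686, 9373 and 8407 in WT muscle. Svil was thus lowest in the 3 Svil-Mut libraries and intermediate in the 3 Svil-KO libraries, with no overlap between genotypes. The difference was -1.01 ± 0.09 log2 (SE) in Svil-Mut against WT (limma adjusted p = 0.000941) and -0.35 ± 0.09 in Svil-KO against WT, which did not pass (limma adjusted p = 0.997). Summed fast-fibre and sarcomere markers were the highest of the 10 marker lists in every library, and these are defining genes of the labelled tissue. The p-values set a difference between genotype means against the spread between these animals, which limma estimated with help from all tested genes. In whole muscle a smaller share of cells of 1 type and less RNA per cell cannot be told apart.

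Of the 78 genes, 77 passed the filter (a value of at least 10 in at least 3 libraries), which 15279 genes passed in all. The exception was Mrpl53, a large-subunit gene at chr6:83109040-83109939 in GENCODE vM21 on GRCm38, which was listed at 0 in 8 libraries and had 3 reads in WT replicate 1. In that annotation 88.0% of its exon bases are shared with Gm42688 or Ccdc142os, and the library kit does not keep strand. Gm42688 had normalized counts of 7.70, 3.06 and 9.57 in Svil-KO, 5.09, 4.77 and 4.73 in Svil-Mut, and 13.1, 11.1 and 5.09 in WT muscle, so both genes were near 0. Whether the counting of overlapping genes lowered Mrpl53 was not tested.

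Transcripts of the other 77 genes were detected in every library. Per kilobase of the principal transcript, the mean over 9 libraries ranged from 179 to 22740 normalized counts, with a median of 1148 and quartiles of 654 and 2730. Mrpl42, a large-subunit protein found only in mitochondrial ribosomes, stood highest, with 22980 ± 936 per kb in Svil-KO, 21950 ± 958 in Svil-Mut and 23300 ± 1040 in WT muscle (SD, n = 3 each). Next came Mrps21, the counterpart of a small bacterial 30S protein, at 7137 ± 242 in Svil-KO, 7515 ± 157 in Svil-Mut and 8075 ± 317 in WT. These were the genes at the top of the order. Mrpl30, a large-subunit protein with a bacterial counterpart, followed with 6119 ± 219 per kb in Svil-KO, 5935 ± 227 in Svil-Mut and 5913 ± 442 in WT. Mrps28, of the small subunit, had 5477 ± 176 in Svil-KO, 5725 ± 521 in Svil-Mut and 5908 ± 179 in WT, and Mrpl14 had 5840 ± 650 in Svil-KO, 4842 ± 244 in Svil-Mut and 6158 ± 769 in WT. Mrpl42 and Mrps21 were separated from their neighbours in this order by more than the spread between libraries, whereas the order of Mrpl30, Mrps28 and Mrpl14 was not the same in each genotype. Values of these 3 genes overlapped in WT, Mrps28 was below Mrpl30 in all Svil-KO libraries, and Mrpl14 was below both others in all Svil-Mut libraries.

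At the lower end, Mrps35 had 268 ± 14.2 normalized counts per kb in Svil-KO, 247 ± 31.2 in Svil-Mut and 270 ± 45.6 in WT muscle, and Mrpl47 had 239.8 ± 34.5 in Svil-KO, 193 ± 35.6 in Svil-Mut and 214 ± 9.68 in WT. Mrps5, a small-subunit protein near the decoding centre, had 339 ± 15.1 in Svil-KO, 294 ± 1.76 in Svil-Mut and 349 ± 14.6 in WT. Mrps25 had 186 ± 19.8 per kb in Svil-KO, 174 ± 10.8 in Svil-Mut and 191 ± 27.2 in WT, and the lowest gene, Mrpl19, had 184 ± 6.26 in Svil-KO, 165 ± 16.8 in Svil-Mut and 187 ± 33.5 in WT. These last 2 genes, 1 of each subunit, did not differ from each other beyond their spread. Other genes share 69.8% of the exon bases of Mrps25, 36.0% of Mrpl19 and 24.2% of Mrpl47, against 0.0% of Mrps35 and Mrps5. Whether this overlap lowered the counts, in a library without strand, was not tested. The order rests on the transcript chosen for the length: over the union of all annotated exons, Mrpl42 ranked 3 in place of 1 and Mrpl33 ranked 60 in place of 6. By class, the median level per kb was 1833 for 29 large-subunit proteins with a bacterial counterpart, 1148 for 21 large-subunit proteins found only in mitochondria, 1436 for 16 small-subunit proteins with a bacterial counterpart and 662 for 10 small-subunit proteins found only in mitochondria.

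The Mrps18 family, paralogues related to a single bacterial small-subunit protein, was unevenly expressed. Despite this relation, the classes used here count Mrps18a and Mrps18b as found only in mitochondria, and only Mrps18c as having a bacterial counterpart. Mrps18a, the large-subunit member, had 4313 ± 289 normalized counts per kb in Svil-KO, 4295 ± 250 in Svil-Mut and 4312 ± 137 in WT muscle. Mrps18c had 1321 ± 65.5 in Svil-KO, 1404 ± 149 in Svil-Mut and 1574 ± 134 in WT, and Mrps18b had 953 ± 66.1 in Svil-KO, 981 ± 58.6 in Svil-Mut and 1048 ± 110.5 in WT. Per kb of principal transcript, Mrps18a was above both paralogues in each genotype by more than their spread. Over the union of all exons the gap narrowed, to 1032 for Mrps18a, 849.7 for Mrps18c and 513 for Mrps18b, each a mean over 9 libraries. Other genes share 30.5% of the exon bases of Mrps18b and 23.2% of Mrps18c, against 0.0% of Mrps18a. Whether this overlap lowered their counts was not tested.

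**Figure D1:**
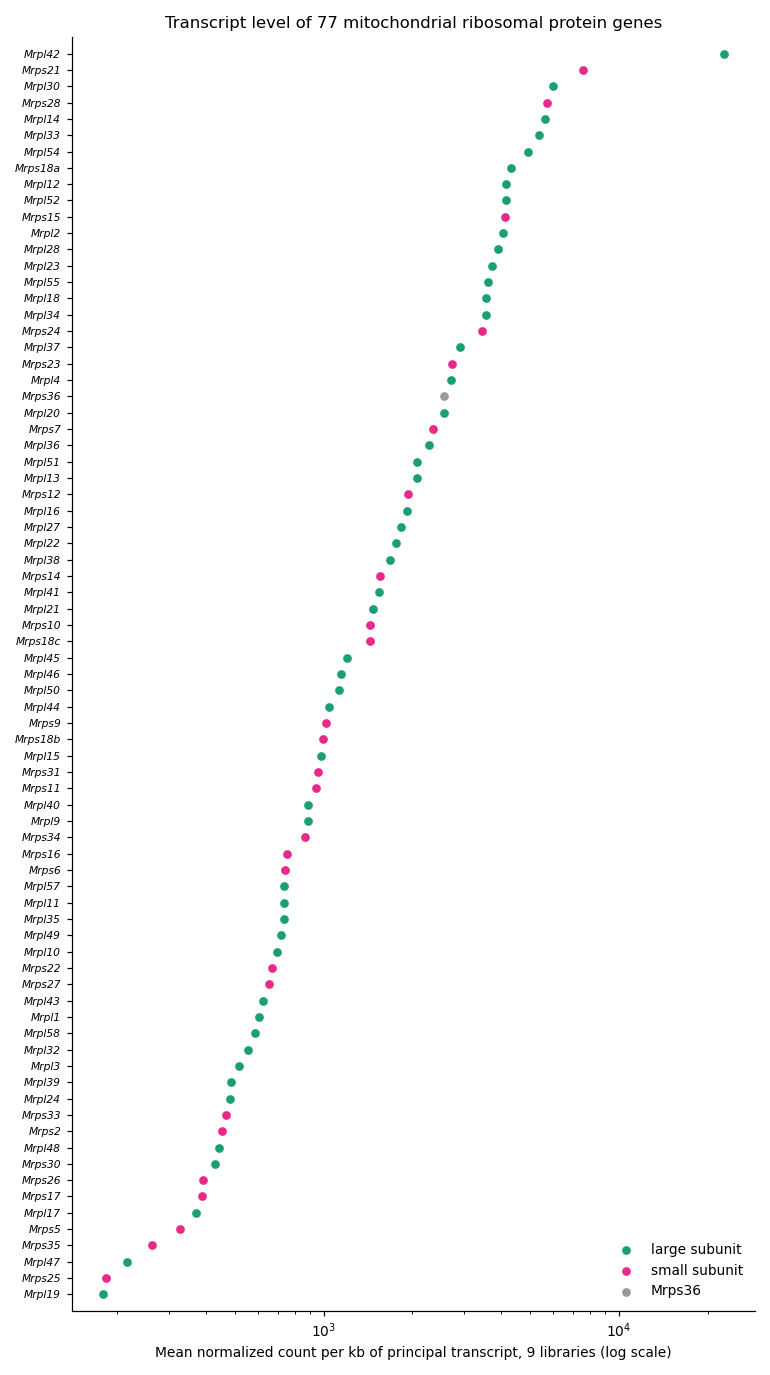
Mean normalized count per kb of principal transcript over 9 libraries (log scale), 1 point per gene, for the 77 tested genes, coloured by subunit. Mrpl42 stands apart at 22740, and the lowest gene, Mrpl19, is at 179.

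In Svil-Mut against WT muscle, no mitochondrial ribosomal protein gene changed at an adjusted p under 0.05, but most of their differences were small and negative. Limma called 0 of the 77 genes, against 0.0393% of the 15279 tested genes. The edgeR test on recovered reads called 0 of 77 (0.0393% of all genes), and DESeq2 called 0 of 77 (1.15% of all genes). The median log2 fold change of the 77 genes was -0.12, against -0.0046 over all tested genes. The fold change was below 0 for 70 of 77 genes, against 50.7% of all genes. At an unadjusted p under 0.05, 8 of 77 were lower, against 5.32% of all genes, and 0 were higher. All 3 Svil-Mut libraries lay below all 3 WT libraries for 13 genes, against 6.81% of all genes, and above them for 1 gene, Mrps15. Standard errors of these well-measured genes were small, with a median of 0.10 log2 against 0.23 over all tested genes.

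The 8 lower genes belong to both subunits. Mrpl44, a mitochondria-only protein with an RNase III-like fold that lies near the exit of the peptide tunnel, had normalized counts of 1196, 1317 and 1274 in Svil-Mut, against 1594, 1467 and 1656 in WT muscle. Every Svil-Mut library was below every WT library, and the Svil-KO libraries, at 1512, 1721 and 1671, overlapped WT. The Mrpl44 difference was -0.32 ± 0.10 log2 (SE), first of the 77 genes by p but short of the threshold (limma adjusted p = 0.334).

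Mrpl28, the counterpart of a bacterial large-subunit protein, had 3928, 3997 and 3591 normalized counts in Svil-Mut, against 4338, 4542 and 4749 in WT. Mrpl14, whose bacterial counterpart lies on the face that meets the small subunit, had 3287, 2973 and 3110 in Svil-Mut, against 3955, 3484 and 4476 in WT. For both genes the Svil-Mut libraries were all below WT, by -0.24 ± 0.08 log2 for Mrpl28 and -0.34 ± 0.11 for Mrpl14 (limma adjusted p = 0.355 and 0.36). Mrpl14 varied more in WT than in Svil-Mut, with its highest WT value in replicate 4.

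Mrps5 had 1320, 1312 and 1327 normalized counts in Svil-Mut, against 1495, 1624 and 1578 in WT muscle, so the Svil-Mut values were close together and below WT (-0.25 ± 0.09 log2, limma adjusted p = 0.398). Mrpl16, whose bacterial counterpart lies near the peptidyl transferase centre, had 2024, 2058 and 1895 in Svil-Mut, against 2433, 2306 and 2356 in WT (-0.25 ± 0.09 log2, limma adjusted p = 0.408). Both genes again showed no overlap.

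Mrpl13, the counterpart of a bacterial large-subunit assembly protein, had 2420, 2368 and 2398 normalized counts in Svil-Mut, against 2713, 2576 and 2961 in WT muscle (-0.20 ± 0.08 log2, limma adjusted p = 0.443). Mrpl22, whose counterpart lines the peptide tunnel, had 1272, 1154 and 1158 in Svil-Mut, against 1308, 1365 and 1546 in WT (-0.23 ± 0.10 log2, limma adjusted p = 0.476). Neither gene overlapped, although the gap for Mrpl22 was narrow. Mrps9, whose bacterial counterpart touches the tRNA in the P site, had 1438, 1246 and 1073 in Svil-Mut, against 1461, 1427 and 1657 in WT. Its Svil-Mut values were widely spread and overlapped WT (-0.28 ± 0.12 log2, limma adjusted p = 0.453). With 3 libraries against 3 an exact 2-sided permutation test can give no p below 0.1, which it gave for each of these genes except Mrps9 (exact p = 0.2).

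**Figure D2:**
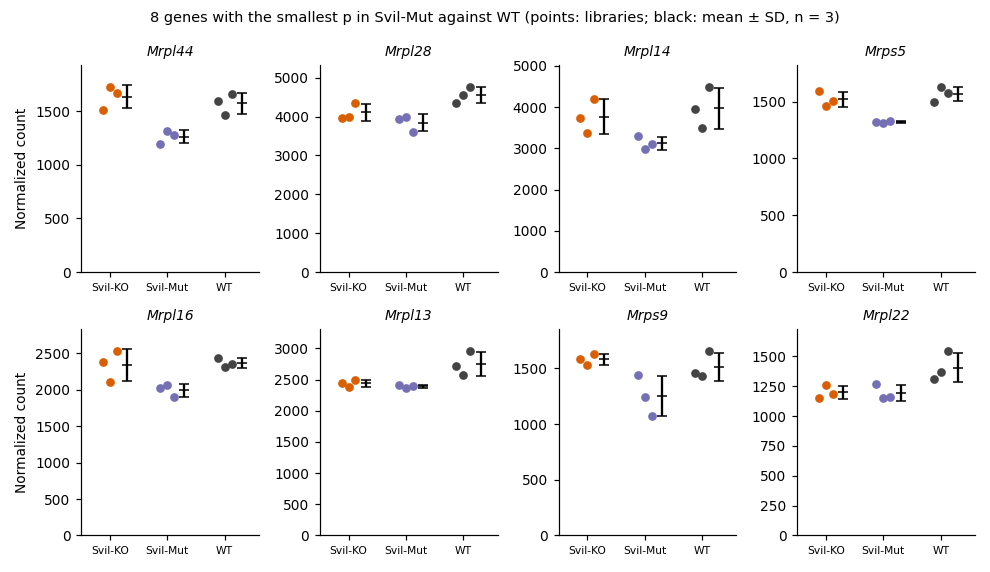
Normalized counts of the 8 genes with the smallest p in Svil-Mut against WT, in Svil-KO, Svil-Mut and WT libraries (points), with mean ± SD in black (n = 3). Svil-Mut libraries lie below all WT libraries in 7 panels and overlap WT in the Mrps9 panel.

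Large- and small-subunit genes gave like medians in Svil-Mut against WT. The median log2 fold change was -0.12 for 50 large-subunit genes, of which 46 were below 0, and -0.13 for 26 small-subunit genes, of which 23 were below 0. It was -0.13 for the 45 genes with a bacterial counterpart and -0.12 for the 31 found only in mitochondria. All 10 small-subunit genes found only in mitochondria had a fold change below 0, led by Mrps34, which had 723, 723 and 788 normalized counts in Svil-Mut, against 909, 820 and 886 in WT (-0.23 ± 0.11 log2, limma adjusted p = 0.508). Exons of Mapk8ip3 or Nme3 cover 77.8% of the Mrps34 exon bases, so its reads are uncertain in a library without strand. Mrps22, a small-subunit protein found only in mitochondria, had 791, 764 and 557 in Svil-Mut, against 816, 782 and 833 in WT (-0.22 ± 0.16 log2, limma adjusted p = 0.703). Mrpl58, a peptidyl-tRNA hydrolase built into the large subunit, had 1470, 1470 and 1315 in Svil-Mut, against 1557, 1654 and 1660 in WT (-0.20 ± 0.10 log2, limma adjusted p = 0.559). Mrps36 had 1862, 1696 and 1626 in Svil-Mut, against 1792, 1822 and 2019 in WT (-0.12 ± 0.10 log2, limma adjusted p = 0.736). Mrps15, a small-subunit protein with a bacterial counterpart, was the only gene with all Svil-Mut values above WT, at 4092, 3904 and 4391 in Svil-Mut, against 3872, 3880 and 3791 in WT (0.10 ± 0.08 log2, limma adjusted p = 0.711).

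Grouped by promoter letters, the median log2 fold change in Svil-Mut against WT was -0.17 for 14 genes with NRF1 letters, -0.11 for 24 tested genes with ETS letters, -0.09 for 11 with YY1 letters and -0.12 for 27 with none of them. Nrf1, which encodes the factor named for the first motif, had 668, 649 and 660 normalized counts in Svil-Mut, against 575, 554 and 619.5 in WT muscle (0.18 ± 0.13 log2, limma adjusted p = 0.705). For 45 genes whose exons overlap no other gene the median was -0.10, and for 9 tested genes with 20% or more of their exon bases overlapped it was -0.13.

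Single libraries carried much of this difference. The median deviation of the 77 genes from the WT mean was -0.03, -0.09 and -0.20 log2 in Svil-Mut replicates 1, 2 and 4, against -0.04, -0.04 and 0.08 in WT replicates 1, 3 and 4. In these deviations the genotypes overlapped, since Svil-Mut replicate 1 lay with WT replicates 1 and 3. Svil-Mut replicate 4 held the lowest of the 9 values for 37 of 77 genes, and WT replicate 4 held the highest for 41. In Svil-Mut replicate 4, 72 of 77 genes were below the WT mean, against 48.7% of all tested genes, and in WT replicate 4 only 8 of 77 were, against 48.3%. The median log2 fold change was -0.06 without Svil-Mut replicate 4 (62 of 77 below 0) and -0.07 without WT replicate 4 (61 of 77 below 0). Summed over the 77 genes, normalized counts were 182000 ± 8071 in Svil-Mut muscle and 195400 ± 10040 in WT muscle (SD, n = 3 each). Their ranges, 173100 to 188900 in Svil-Mut and 188900 to 207000 in WT, met at their ends. This contact depended on the size factors. As a share of all recovered reads, with Mrpl53 included, these genes were lower in every Svil-Mut library than in any WT library. By that share Svil-Mut replicates 2 and 4 were nearly equal. With libraries scaled to equal totals the median log2 fold change was -0.16, with 75 of 77 genes below 0.

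**Figure D3:**
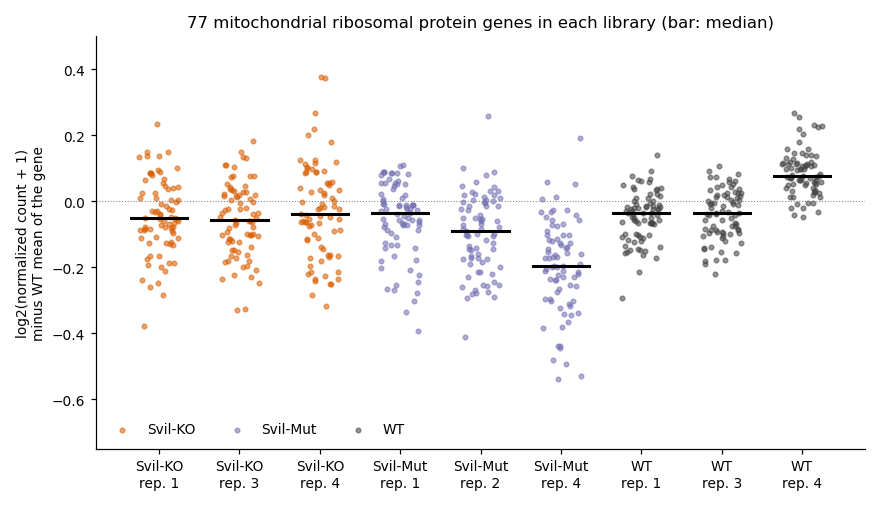
Deviation of each of the 77 genes from its WT mean (log2 of normalized count + 1) in every library of Svil-KO, Svil-Mut and WT, with the median as a bar. Medians run from -0.20 in Svil-Mut replicate 4 to 0.08 in WT replicate 4.

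Markers of fibre and cell type differed between the same libraries. Summed over 8 slow-fibre genes, normalized counts were 38990 to 64490 in Svil-Mut, against 80290 to 118700 in WT muscle, with 8 of 8 genes below 0 and 2 lower at an unadjusted limma p under 0.05. The 10 myofibre genes, mostly of fast fibres, summed to 8047000 to 8698000 in Svil-Mut, against 6752000 to 7224000 in WT, with 9 of 10 above 0 and 4 higher at that p. Sums over all 8 listed red blood cell genes were 6605 to 49890 in Svil-Mut, against 4480 to 8237 in WT, and of the 7 tested, 7 were above 0 and 5 higher at that p. Svil-Mut replicate 4 was the library lowest in summed normalized counts of mitochondrial ribosomal protein genes. It had the highest median deviation of all libraries for red blood cell (3.25 log2), macrophage (1.28) and neutrophil genes (3.22). Its macrophage sum was 3496, against 1252 to 1744 in WT. Its neutrophil sum, of genes with few counts, was 421, against 18.34 to 73.29 in WT. Sums over 5 satellite-cell genes were 446.6 to 595 in Svil-Mut, against 736 to 864 in WT. Of these 5 genes, 4 were below 0 and 2 were lower at an unadjusted limma p under 0.05. The neutrophil marker Ly6g was listed at 0 in all libraries, and sums over endothelial, macrophage, Schwann-cell, adipocyte, fibro-adipogenic and neutrophil lists overlapped between Svil-Mut and WT. Within these lists, 7 of 7 fibro-adipogenic genes were below 0 in Svil-Mut against WT (median -0.24 log2, 1 lower at an unadjusted limma p under 0.05), as were 6 of 6 Schwann-cell genes (median -0.18, 0 lower at that p) and 6 of 7 adipocyte genes (median -1.53, 3 lower at that p). Endothelial genes were below 0 in 3 of 7 cases, macrophage genes in 4 of 7 and neutrophil genes in 1 of 4. The part of these shifts in the mitochondrial ribosomal protein values was not tested.

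In Svil-KO against WT muscle the differences were smaller, and no mitochondrial ribosomal protein gene passed the test. Limma called 0 of the 77 genes, against 0.0% of all tested genes, edgeR called 0 (0.0% of all genes) and DESeq2 called 0 (0.0262% of all genes). The median log2 fold change was -0.04, against 0.0031 over all tested genes, and 55 of 77 genes were below 0, against 49.4% of all genes. At an unadjusted limma p under 0.05, 5 of 77 were lower, against 1.75% of all genes, and 0 were higher. All Svil-KO libraries lay below all WT libraries for 14 genes, against 5.45% of all genes, and above them for 1 gene, Mrpl46. The 3 WT libraries are the same as in the comparison of Svil-Mut with WT, so the 2 comparisons are not independent.

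Mrpl54, a mitochondria-only large-subunit protein, had 2698, 2876 and 2675 normalized counts in Svil-KO, against 2956, 3178 and 3439 in WT (-0.21 ± 0.08 log2, SE). Mrps21 had 3617, 3435 and 3396 in Svil-KO, against 3877, 3828 and 4117 in WT (-0.18 ± 0.07 log2). Both genes were lower in every Svil-KO library, and like the other genes of this paragraph and the next they had a limma adjusted p of 0.997. Mrpl33, the counterpart of a small bacterial large-subunit protein, had 2497, 2500 and 2264 in Svil-KO, against 2740, 2805 and 2917 in WT (-0.22 ± 0.09 log2). Mrpl57, found only in mitochondrial ribosomes, had 1949, 2017 and 1946 in Svil-KO, against 2054, 2438 and 2480 in WT (-0.23 ± 0.10 log2). The gap between groups was wider for Mrpl33 than for Mrpl57, where WT replicate 1 lay close to the Svil-KO libraries.

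Mrpl22 and Mrpl13 were also among the 8 leading genes of the other comparison. Mrpl22 had 1151, 1261 and 1185 normalized counts in Svil-KO, against 1308, 1365 and 1546 in WT (-0.23 ± 0.10 log2), and Mrpl13 had 2447, 2374 and 2492 in Svil-KO, against 2713, 2576 and 2961 in WT (-0.17 ± 0.08 log2). Mrps18c had 880, 798 and 851 in Svil-KO, against 1056, 906 and 1051 in WT (-0.25 ± 0.12 log2). In this comparison Mrpl48, a mitochondria-only large-subunit protein, had the lowest fold change, with 1607, 1759 and 1716 in Svil-KO, against 2008, 2248 and 2022 in WT (-0.30 ± 0.14 log2). None of the 4 genes overlapped between genotypes, and for Mrps18c 23.2% of exon bases are shared with another gene. An exact 2-sided permutation test gave the smallest possible p of 0.1 for each of the 8 genes.

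By subunit, the median log2 fold change in Svil-KO against WT was -0.03 for large-subunit genes (33 of 50 below 0) and -0.05 for small-subunit genes (21 of 26 below 0). Library medians were -0.05, -0.06 and -0.04 log2 in Svil-KO replicates 1, 3 and 4, close to WT replicates 1 and 3 at -0.04 and -0.04 and below WT replicate 4 at 0.08. Without WT replicate 4 the median changed sign to 0.01, with 35 of 77 genes below 0, and without WT replicate 1 it was -0.07. Summed normalized counts were 189200 ± 1501 in Svil-KO muscle and 195400 ± 10040 in WT muscle (SD, n = 3 each). Slow-fibre sums of 76230 to 120000 in Svil-KO overlapped the 80290 to 118700 of WT, as did myofibre sums of 6755000 to 7695000 in Svil-KO and 6752000 to 7224000 in WT. Sums of the remaining marker lists overlapped too. Below 0 were 6 of 7 adipocyte genes (median -1.34 log2), 3 of 4 neutrophil, 4 of 5 satellite-cell and 5 of 7 red blood cell genes. So were 5 of 7 endothelial, 5 of 7 fibro-adipogenic, 3 of 6 Schwann-cell and 2 of 7 macrophage genes. At an unadjusted limma p under 0.05, 1 satellite-cell gene was lower and 0 marker genes were higher.

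**Figure D4:**
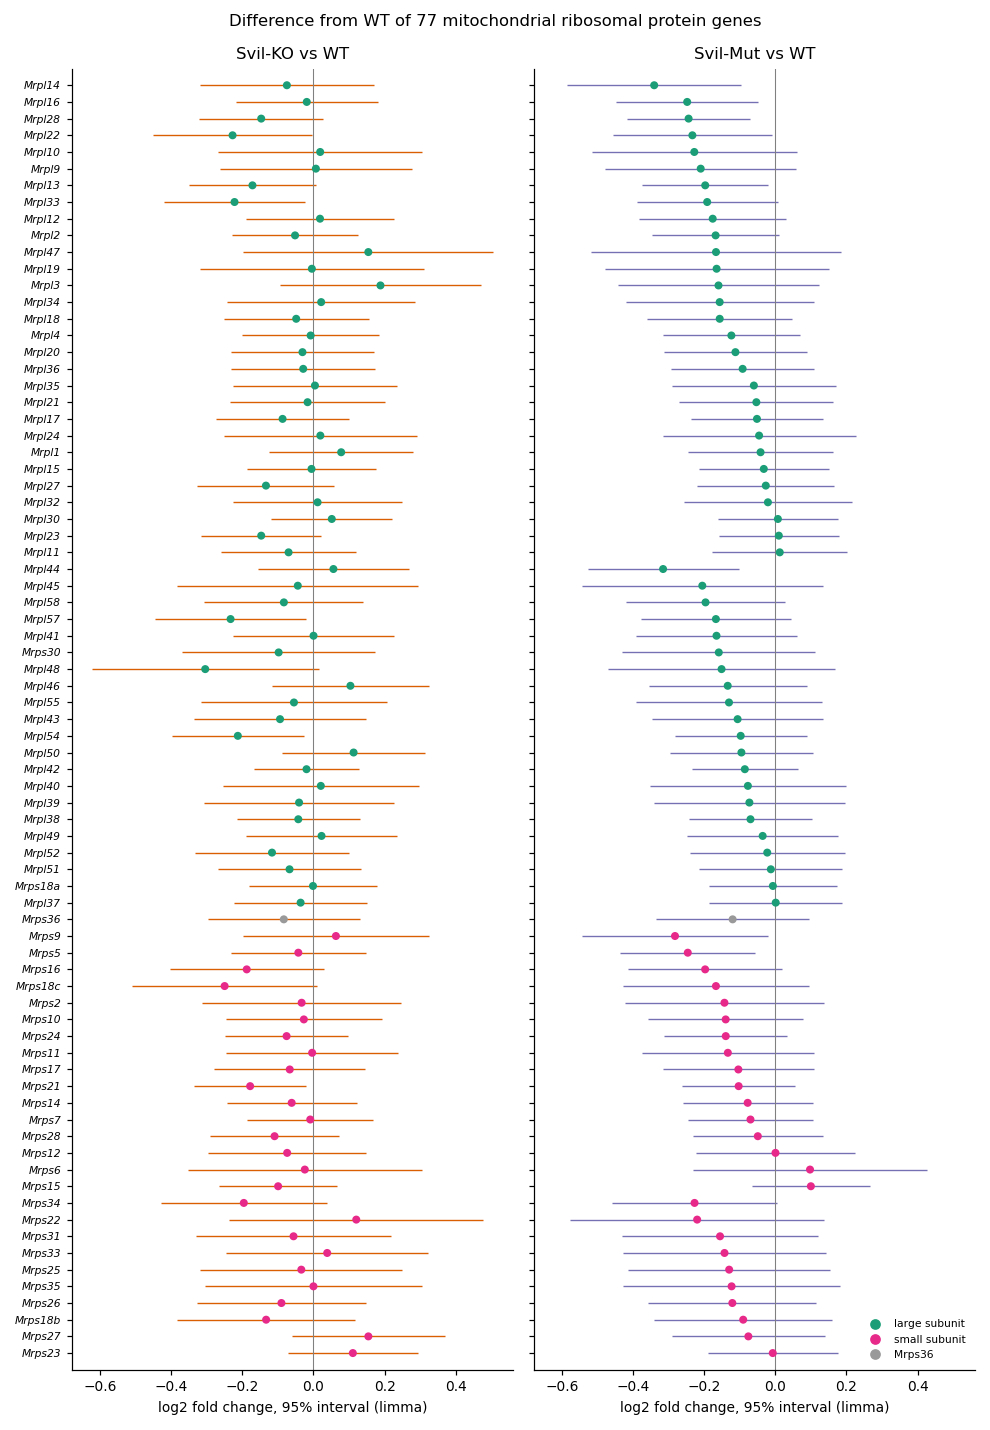
Log2 fold change with 95% interval from limma for each of the 77 genes in Svil-KO against WT and Svil-Mut against WT, grouped by subunit and class. The points centre near -0.04 in the Svil-KO panel and near -0.12 in the Svil-Mut panel.

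Svil-KO muscle was set against Svil-Mut muscle to compare the altered strains directly. Limma called 0 of the 77 genes, against 0.0458% of all tested genes, and edgeR called 0 (0.0458% of all genes). DESeq2 called 1, Mrpl44 (adjusted p = 0.0298), against 1.41% of all genes. The median log2 fold change was 0.06, against 0.01 over all tested genes, and 59 of 77 genes were above 0, against 51.4% of all genes. At an unadjusted limma p under 0.05, 9 were higher in Svil-KO, against 5.51% of all genes, and 1 was lower. All Svil-KO libraries lay above all Svil-Mut libraries for 13 genes, against 7.55% of all genes, and below them for 3 genes. Without Svil-Mut replicate 4 the median was 0.03, with 30 of 77 genes below 0 in place of 18.

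Mrpl44 was higher in Svil-KO, by 0.37 ± 0.10 log2 from the values given above, but passed in DESeq2 only (limma adjusted p = 0.25, edgeR adjusted p = 0.248). Leaving out 1 library at a time gave Mrpl44 differences of 0.33 to 0.43 log2. Mrps9 was at 1580, 1533 and 1626 normalized counts in Svil-KO, against 1438, 1246 and 1073 in Svil-Mut (0.34 ± 0.12 log2, limma adjusted p = 0.371). Mrpl3, whose bacterial counterpart reaches towards the peptidyl transferase centre, had 2377, 2180 and 2352 in Svil-KO, against 2087, 1740 and 1627 in Svil-Mut (0.35 ± 0.13 log2, limma adjusted p = 0.412). In WT, Mrpl3 had 1883, 1817 and 2409, a range that overlapped both strains. Mrpl46, a mitochondria-only large-subunit protein, had 1346, 1449 and 1420 in Svil-KO, against 1294, 1228 and 1063 in Svil-Mut (0.24 ± 0.10 log2, limma adjusted p = 0.467). Its head-to-head neighbour Mrps11 had 995, 960 and 1116 in Svil-KO, against 906, 953 and 943 in Svil-Mut (0.13 ± 0.11 log2, limma adjusted p = 0.741). Neither gene of the pair had values that overlapped between the strains. Exons of Mrpl46 and Mrps11 overlap each other, over 12.2% of Mrpl46 and 8.0% of Mrps11 exon bases. Whether this overlap affected their counts, in a library without strand, was not tested.

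Differences of Svil-KO from Svil-Mut were 0.23 ± 0.09 log2 for Mrpl16, 0.27 ± 0.11 for Mrpl14 and 0.20 ± 0.09 for Mrps5 (limma adjusted p = 0.441, 0.464 and 0.467). For Mrpl16 the Svil-KO values were 2380, 2107 and 2533, for Mrpl14 they were 3732, 3366 and 4203, and for Mrps5 they were 1593, 1460 and 1507, each above the Svil-Mut values. Mrps15 ran the other way, with 3619, 3725 and 3436 in Svil-KO, against 4092, 3904 and 4391 in Svil-Mut (-0.20 ± 0.08 log2, limma adjusted p = 0.414). Slow-fibre sums were 76230 to 120000 in Svil-KO, against 38990 to 64490 in Svil-Mut, and all 8 slow-fibre genes were above 0 in this comparison. At an unadjusted limma p under 0.05, 4 of these 8 were higher. The 10 myofibre genes summed to 6755000 to 7695000 in Svil-KO, against 8047000 to 8698000 in Svil-Mut. Of these 10, 9 were below 0, with 6 lower and 1 higher at that p. Red blood cell sums were 2687 to 6292 in Svil-KO, against 6605 to 49890 in Svil-Mut, over all 8 listed genes, and of the 7 tested, 7 were below 0. Satellite-cell sums were 608 to 825 in Svil-KO, against 446.6 to 595 in Svil-Mut, with 5 of 5 genes above 0. Sums of the remaining lists overlapped between the strains. Of their genes, 6 of 6 Schwann-cell, 5 of 7 fibro-adipogenic, 5 of 7 adipocyte and 4 of 7 macrophage ones were above 0. Endothelial genes were below 0 in 5 of 7 cases and neutrophil genes in 4 of 4. Whether these marker differences bear on the ribosomal protein values was not tested.

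Other parts of mitochondrial protein synthesis were read from the same fits. None of the genes in these lists passed limma's or edgeR's adjusted threshold in any of the 3 comparisons, and DESeq2 called only transcripts of mitochondrial DNA and genes of complex I among them. The 5 mitoribosome proteins with other names had a median log2 fold change of -0.11 in Svil-KO against WT and -0.10 in Svil-Mut against WT. Chchd1, a small-subunit protein, had 3634, 3757 and 3691 normalized counts in Svil-KO and 3702, 3884 and 3629 in Svil-Mut, against 3853, 4237 and 4578 in WT. Aurkaip1, also of the small subunit, had 3234, 3253 and 2695 in Svil-KO and 3020, 2725 and 2957 in Svil-Mut, against 3232, 3149 and 3471 in WT. Chchd1 was below every WT library in Svil-KO, while its Svil-Mut values overlapped WT, and Aurkaip1 did the reverse. Of the 5, 1 was lower at an unadjusted limma p under 0.05 in Svil-KO and 0 in Svil-Mut. Ptcd3, Dap3 and Gadd45gip1 had differences from WT of -0.10 ± 0.10, -0.03 ± 0.11 and -0.03 ± 0.12 log2 in Svil-Mut.

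The ribosomal RNAs of the mitoribosome, read here only as far as an oligo(dT) primer captures them, had 70990, 72090 and 61600 normalized counts of mt-Rnr1 in Svil-KO and 58180, 68550 and 58060 in Svil-Mut, against 72050, 69050 and 72190 in WT. The mt-Rnr1 difference in Svil-Mut was -0.21 ± 0.09 log2 (limma adjusted p = 0.443), and that of mt-Rnr2 was -0.16 ± 0.11 (limma adjusted p = 0.681). Mitochondrial translation factors had a median of 0.03 in Svil-KO against WT and -0.15 in Svil-Mut against WT, where 4 of 15 were lower at an unadjusted limma p under 0.05 and 0 higher. Mtif2, the initiation factor, had 1061, 1171 and 1179 in Svil-KO and 899, 953 and 804 in Svil-Mut, against 1048, 1122 and 1049 in WT. Tufm, elongation factor Tu of mitochondria, had 3191, 3272 and 3289 in Svil-KO and 3027, 2724 and 2429 in Svil-Mut, against 3072, 3149 and 3511 in WT. Gfm1, elongation factor G, had 5789, 5919 and 6373 in Svil-KO and 5414, 5372 and 4571 in Svil-Mut, against 5998, 6109 and 5697 in WT. All 3 factors were lower in every Svil-Mut library than in any WT library, by -0.28 ± 0.11, -0.25 ± 0.10 and -0.22 ± 0.08 log2 (limma adjusted p = 0.415, 0.415 and 0.432).

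Genes that assemble the mitoribosome had a median of -0.03 in Svil-KO and -0.04 in Svil-Mut against WT. Of the 27, 14 were below 0 in Svil-KO and 19 in Svil-Mut, against 49.4% and 50.7% of all genes in these comparisons. In Svil-Mut 3 of 27 were lower and 1 higher at an unadjusted limma p under 0.05. Noa1, a GTPase of mitochondrial ribosome assembly, had 854, 902 and 821 in Svil-Mut, against 1129, 1048 and 1116 in WT (-0.35 ± 0.10 log2, limma adjusted p = 0.325). Mtg2, another assembly GTPase, had 1007, 1002 and 1221 in Svil-Mut, against 801, 819 and 905 in WT (0.35 ± 0.11 log2, limma adjusted p = 0.359). For 22 mitochondrial tRNA synthetases the median was -0.02 in Svil-KO and -0.05 in Svil-Mut against WT, and for 15 genes of mitochondrial DNA expression it was -0.03 in Svil-KO and -0.02 in Svil-Mut against WT. At an unadjusted limma p under 0.05, the only gene of these 2 lists to differ in either comparison was 1 synthetase, higher in Svil-KO.

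In Svil-Mut against WT, the messengers that the mitoribosome translates had a larger median difference than the transcripts of its own protein genes. These messengers too were read only as far as an oligo(dT) primer captures them. All 13 protein-coding transcripts of mitochondrial DNA had a log2 fold change below 0 in Svil-Mut against WT, with a median of -0.47, and 11 of them were lower at an unadjusted limma p under 0.05. mt-Nd4, a subunit of complex I, had 123800, 122800 and 96340 normalized counts in Svil-Mut, against 157000, 143100 and 175000 in WT (-0.47 ± 0.11 log2, limma adjusted p = 0.267). DESeq2 called 6 of the 13 in Svil-Mut against WT, while limma and edgeR called 0. In Svil-KO against WT the median of the 13 was 0.07. The 41 tested nuclear genes of complex I (Nduf) had a median of -0.07 in Svil-KO and -0.21 in Svil-Mut against WT, and in Svil-Mut 41 of 41 were below 0, 28 were lower at an unadjusted limma p under 0.05 and 2 were called by DESeq2 (Ndufb6 and Ndufb9, named after their values were seen). Cytosolic ribosomal proteins, 77 tested genes of the other ribosome, had a median of -0.12 in Svil-KO (75 of 77 below 0) and 0.01 in Svil-Mut (31 of 77 below 0) against WT. The medians of the mitochondrial ribosomal protein genes thus lay between those of complex I and of all tested genes in Svil-Mut, and the difference between the lists was not tested. Esrra, a nuclear receptor that drives genes of oxidative metabolism, had 3326, 2997 and 2447 in Svil-Mut, against 3746, 3301 and 3861 in WT (-0.32 ± 0.12 log2, limma adjusted p = 0.402), with Svil-Mut replicate 4 the lowest here too. Myc, a growth regulator of the same list, ran the other way, with 301, 363 and 272.5 in Svil-Mut, against 162, 204 and 248 in WT (0.62 ± 0.24 log2, limma adjusted p = 0.432). The 9 regulators of mitochondrial biogenesis had a median of 0.03 in Svil-Mut against WT, with 4 below 0 and 5 above.

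**Figure D5:**
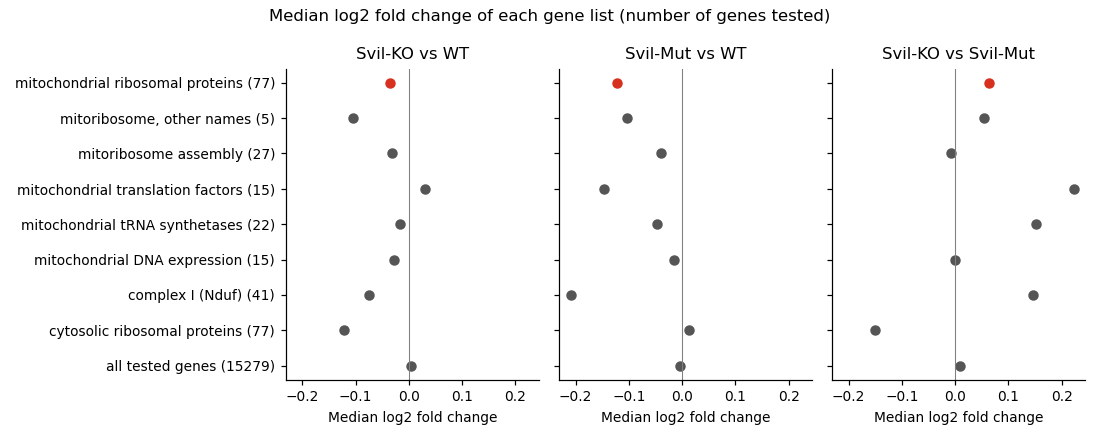
Median log2 fold change of each gene list (number of tested genes in brackets) for Svil-KO over WT, for Svil-Mut over WT and for Svil-KO over Svil-Mut. Mitochondrial ribosomal proteins (red) are at -0.04, -0.12 and 0.06, and complex I is at -0.21 in Svil-Mut against WT.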

How the data were processed

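Per the labels' protocols, cDNA was primed with oligo(dT), amplified with a SMARTer v4 kit and made into libraries with Nextera XT; these kits keep no strand and add no molecular identifiers. Per the submitters' processing notes, HISAT2, featureCounts and DESeq2 were used with mm10; their versions and settings, and the annotation counted on, were not given in the sources used here. Each deposited value is a signal, which the authors obtained by dividing a gene's read count by a size factor of the library. All nonzero values (100.0%) in each library were whole multiples of 1 step within 0.02, which gave back whole reads.

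Computed here: log2(value + 1) of genes with at least 10 in at least 3 libraries was fitted over all 9 libraries with limma 3.58.1 (variance trend, R 4.3.3) and adjusted by Benjamini-Hochberg over the 15279 tested genes, with calls under 0.05. As alternatives, edgeR 4.0.16 quasi-likelihood (TMM) and DESeq2 1.42.0 ran on the recovered reads, beside other pseudocounts, filters, scalings, trends, a replicate block and leaving out each library. The limma fit, but not edgeR or DESeq2, was run on simulated counts with changes larger than any seen among the 77 genes. Its recovery of smaller changes was not tested. Fold changes on the log2(value + 1) scale understate those of low genes, none of which is among the 77. Coordinates, transcript lengths and exon overlaps came from GENCODE vM21 (GRCm38), promoters from RefSeq (GRCm38.p6). Genotype labels gave the groups, and titles gave the replicate numbers. Named genes were the 8 with the smallest p in each comparison, the 5 highest and 5 lowest per kb, the 2 leading genes of each class, those failing the filter, the Mrps18 family, and up to 3 genes of each other list. Members and lists were chosen with earlier results of these data known.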

Additional observations from a re-analysis of the deposited data

How the results depend on the processing

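The count of mitochondrial ribosomal protein genes called stayed at 0 in each comparison under all alternatives run, except that DESeq2 called 1 (Mrpl44) in Svil-KO against Svil-Mut. Over all tested genes, DESeq2 called 4 genes for Svil-KO over WT, 176 for Svil-Mut over WT and 216 for Svil-KO over Svil-Mut, where limma called 0, 6 and 7. For Svil-Mut against WT, the number was 19 with a pseudocount of 10, 16 with a mean of at least 50, 16 with robust estimation, 14 with only the 2 genotypes in the fit and 20 at an adjusted p under 0.1. For Svil-KO against Svil-Mut it was 19 at an adjusted p under 0.1. Leaving out 1 library at a time gave 4 to 18 calls for Svil-Mut against WT and 4 to 13 for Svil-KO against Svil-Mut. The cause of these shifts was not tested.

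Over the libraries left out in turn, the median log2 fold change of the 77 genes ranged from -0.074 to 0.0109 for Svil-KO over WT, from -0.137 to -0.0624 for Svil-Mut over WT and from 0.0266 to 0.0914 for Svil-KO over Svil-Mut. Scaling libraries to equal totals gave medians of -0.05, -0.16 and 0.08. Deviations of same-numbered libraries of different genotypes correlated at -0.06 to 0.04, against -0.04 to 0.06 for differently numbered ones. Between Svil-KO and WT, same-numbered pairs gave 0.026, 0.044 and 0.038, and differently numbered pairs -0.035 to -0.0023. Same-numbered pairs that include Svil-Mut gave -0.056 to 0.0071. Such weak correlations over all genes cannot tell whether the numbers pair the animals. With the replicate block the medians were -0.04, -0.14 and 0.08, with 0, 7 and 6 genes called. Mrpl44 in Svil-Mut against WT had adjusted p-values of 0.109 to 0.612 over the alternatives. The Svil difference between Svil-KO and Svil-Mut missed the threshold under 9 alternatives, and that between Svil-Mut and WT under 1.

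With 3 libraries a genotype, differences of about 0.1 log2, the size seen here, are near the median standard error of 0.10 and were not detectable gene by gene. The gene with the fewest reads among the 77, Mrps33, had 474 to 682 per library. Over all genes with at least 100 reads in a pair of libraries, read counts were compared between libraries of the same genotype. Chi-square per degree of freedom was 26.96 (WT replicates 1 and 4) to 101.47 (Svil-Mut replicates 2 and 4), far above counting error alone. The share of counting error in the 77 genes was not computed.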
